A study of Mus musculus with 12 samples.

Results

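The levels of 9 mesenchymal transcription factors were followed while mouse embryonic fibroblasts (MEFs) were reprogrammed towards induced pluripotent stem cells (iPSCs). The 9 genes were Snai1, Snai2, Twist1, Twist2, Zeb1, Zeb2, Prrx1, Prrx2 and Foxc2, chosen by their symbols, and all 9 were found among the 24098 genes of the deposited expression table. All 9 also reached 1 FPKM (fragments mapped to a gene, scaled by transcript length and by the mapped fragments of the library) in at least 1 library, as did 14178 genes in all. Because of the scaling by length, levels of different genes can be set side by side.

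Messenger RNA was sequenced in 12 libraries, 1 for each of 12 conditions. D0 was the uninfected MEFs, which carry a GFP reporter at Oct4, on day 0. D3 was unsorted cells on day 3 after infection with pMXs retroviruses for Oct4, Sox2, Klf4 and c-Myc (OSKM). Thy-1, a fibroblast surface protein, was used to sort the cells of day 6 into D6T- and D6T+ and those of day 9 into D9T- and D9T+. SSEA-1, a carbohydrate that pluripotent cells carry, was used to sort the cells of day 12 into D12S+ and D12S- and those of day 16 into D16S+ and D16S-. Thy-1- and SSEA-1+ cells form the route that the study calls successful, and Thy-1+ and SSEA-1- cells the unsuccessful one. The end points were iPSCs and mouse embryonic stem cells (mESCs) of the line ESD3. The labels give infected cells, iPSCs and mESCs 1 feeder-free medium with serum replacement, LIF, ascorbic acid, bFGF and CHIR99021, whereas the study's methods also name other media for these cells, so which medium each library had is uncertain. With 1 library per condition there was no replicate and no test, so each difference below compares 2 libraries and has no replicate check.

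These factors are the textbook drivers of the epithelial to mesenchymal transition (EMT). SNAIL, ZEB and TWIST proteins bind E-boxes, short DNA elements, and SNAIL and ZEB proteins repress Cdh1 and other genes of cell junctions through them. Fibroblasts keep the mesenchymal programme on, and its reversal, the mesenchymal to epithelial transition, is a known early step of their reprogramming. PRRX proteins are homeobox factors of limb and craniofacial mesenchyme, and FOXC2 is a forkhead factor of mesoderm and vessels.

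The genes lie apart in the genome. On mm9, with the GENCODE M1 annotation, Snai1 (chr2:167363695-167368314, plus strand), Zeb2 (chr2:44839154-44972915, minus strand) and Prrx2 (chr2:30690492-30736761, plus strand) share a chromosome at distant sites. Twist2 (chr1:93698038-93744605, plus strand) and Prrx1 (chr1:165175247-165243841, minus strand) share another. Snai2 lies at chr16:14705945-14709488, Twist1 at chr12:34642536-34644682 and Foxc2, a gene of 1 exon, at chr8:123640071-123642792, all on the plus strand. Zeb1, Zeb2, Prrx1 and Foxc2 overlap other annotated genes, of which 1, Gm10125 antisense to Zeb1, was in the table and stayed between 0 and 0.135 FPKM. Whether counting used the strand was not given in the sources used here, so for these 4 genes a share of reads from an overlapping gene cannot be told apart.

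The sequence before the start of 3 genes is shown because SNAIL, ZEB and TWIST proteins bind E-boxes and a factor of this group may carry such an element itself. RefSeq promoters (GRCm38.p6, so not on the coordinates above) were found for 6 of the 9 genes, with 9 promoters in all since Zeb2 had 4; Snai2, Zeb1 and Foxc2 had no entry. The 250 bases before the start of Snai1 (chr2:167537945-167538194, plus strand), Twist1 (chr12:33957421-33957670, plus strand) and Twist2 (chr1:91801211-91801460, plus strand) follow, 5′ to 3′, with matches to CANNTG and to CCAAT or its reverse ATTGG in capitals.
Snai1: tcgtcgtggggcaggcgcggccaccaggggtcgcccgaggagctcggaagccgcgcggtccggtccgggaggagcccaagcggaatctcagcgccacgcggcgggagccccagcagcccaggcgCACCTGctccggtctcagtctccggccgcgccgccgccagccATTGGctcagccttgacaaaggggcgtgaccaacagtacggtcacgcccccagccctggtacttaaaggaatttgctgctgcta
Twist1: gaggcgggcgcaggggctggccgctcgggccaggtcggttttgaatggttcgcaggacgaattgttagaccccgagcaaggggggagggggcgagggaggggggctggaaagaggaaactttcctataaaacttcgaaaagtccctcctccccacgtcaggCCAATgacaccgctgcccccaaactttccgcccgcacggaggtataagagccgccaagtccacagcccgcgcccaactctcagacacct
Twist2: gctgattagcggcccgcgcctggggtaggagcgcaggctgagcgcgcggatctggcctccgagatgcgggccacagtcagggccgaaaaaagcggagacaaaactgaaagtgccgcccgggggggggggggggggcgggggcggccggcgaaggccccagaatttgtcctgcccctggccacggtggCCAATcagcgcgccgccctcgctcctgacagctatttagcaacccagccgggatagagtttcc
An E-box with the letters CACCTG began at base -126 of Snai1. The other 8 promoters held no element of the form CANNTG in these 250 bases or in the 50 bases after the start. Of those 8, 4 belonged to Zeb2 and some of these overlap, so they are not separate cases. Over windows of 300 bases (250 before and 50 after the start) of all 32851 RefSeq promoters, 72.3% held CANNTG and 20.2% held CAGGTG or CACCTG. Both strands were searched, and every CAGGTG or CACCTG is also a CANNTG element. A second motif, CCAAT or ATTGG, searched after the sequences had been read, began at -84 in Snai1, -89 in Twist1 and -63 in Twist2. It was in 4 of the 9 promoters, against 37.4% of all promoters in the longer window. A match describes letters and not a bound site.

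In D0 the 9 genes summed to 633 FPKM, of which Twist2 made 68.7%. The sum was 153 FPKM in D3, 90.4 in D6T-, 49.0 in D9T-, 46.8 in D12S+ and 15.3 in D16S+. It was 462 FPKM in D6T+, 360 in D9T+, 114 in D12S- and 133 in D16S-. On each of the 4 sorted days the sum was thus lower in the successful fraction. The iPSCs held 33.6 FPKM, of which Snai1 made 57.0%, and the mESCs held 22.0 FPKM, of which Prrx2 made 36.2%. In bulk libraries fewer cells with a transcript and less of it in each cell cannot be told apart.

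**Figure D1:**
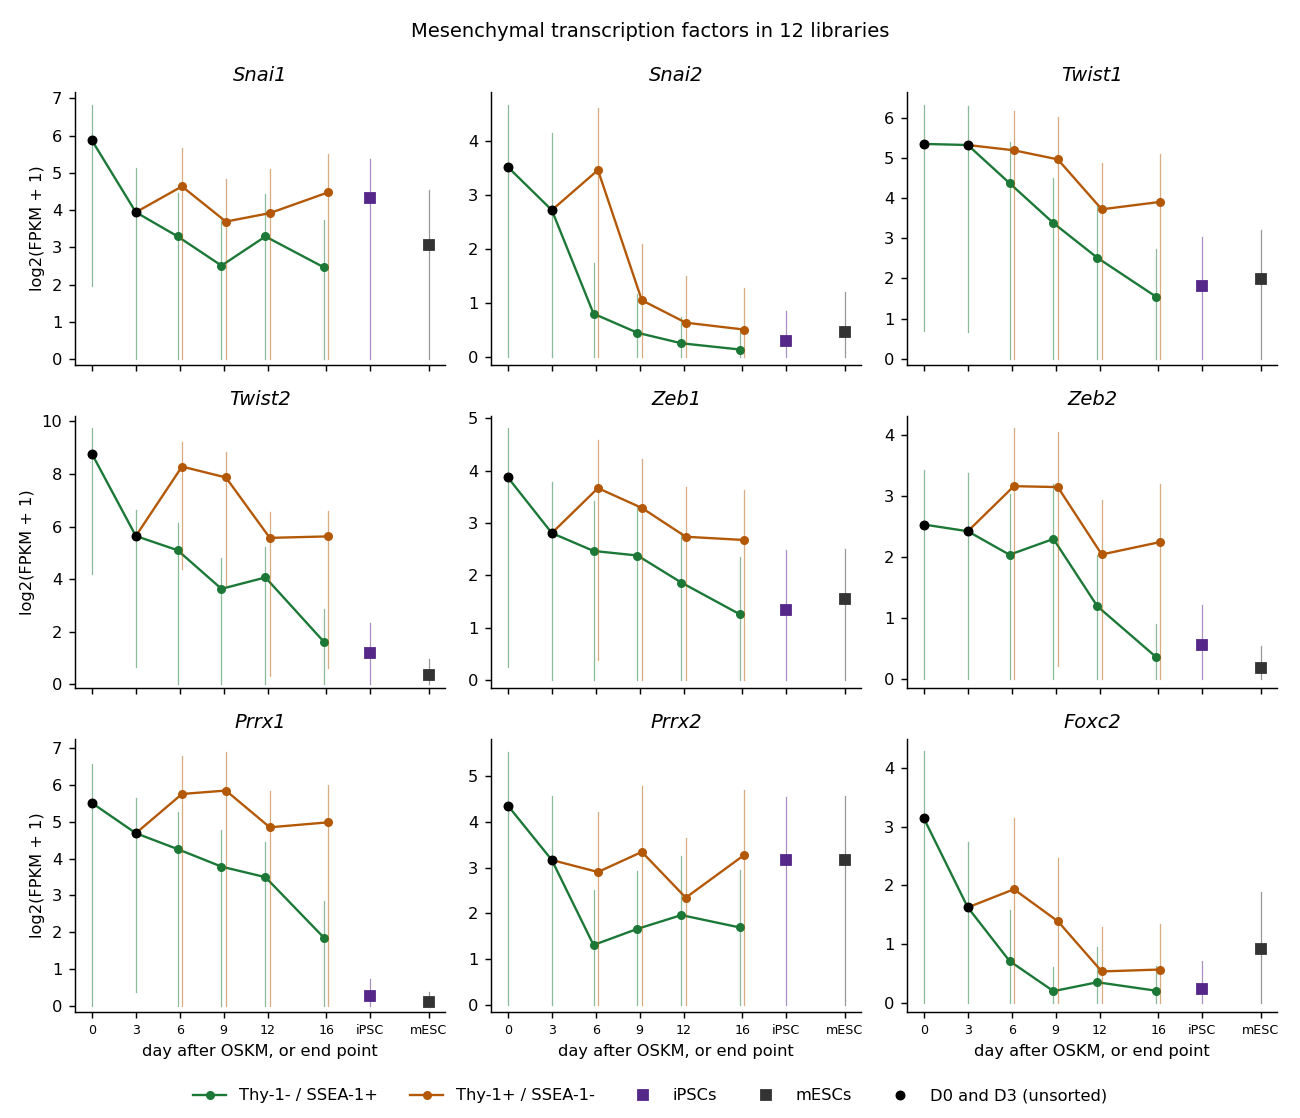
Level of each of the 9 genes, as log2(FPKM + 1), in the 12 libraries by day, with the successful (green) and unsuccessful (orange) fractions joined by lines and iPSCs and mESCs as squares. Thin vertical lines are the intervals modelled by cuffdiff from 1 library each; the orange points lie above the green ones on every sorted day in all 9 panels.

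Snai1, a zinc finger repressor of Cdh1, was the factor with the second highest level in D0. It stood at 57.5 FPKM in D0, 14.4 in D3, 8.82 in D6T-, 4.70 in D9T-, 8.80 in D12S+ and 4.52 in D16S+. On the other route it stood at 23.9 FPKM in D6T+, 11.9 in D9T+, 14.1 in D12S- and 21.3 in D16S-. Its level was 19.2 FPKM in iPSCs and 7.33 in mESCs. D0 was the highest library, D16S+ the lowest, and iPSCs came close to D16S- and D6T+. Snai1 made the largest part of its fall at once, since on the log2(FPKM + 1) scale 56.6% of the difference between D0 and D16S+ was present at D3.

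Snai2, which encodes the SLUG repressor of neural crest and mesoderm, was lower than Snai1 in every library. It stood at 10.5 FPKM in D0, 5.61 in D3, 0.741 in D6T-, 0.362 in D9T-, 0.190 in D12S+ and 0.0978 in D16S+. The unsuccessful fractions had 10.1 FPKM in D6T+, 1.07 in D9T+, 0.551 in D12S- and 0.419 in D16S-, and the end points had 0.225 in iPSCs and 0.383 in mESCs. D6T+ still held 95.9% of the D0 level, whereas D9T+ held 10.2% and D16S- 3.99%. The step from D6T+ to D9T+ was the largest of Snai2 on that route, with a log2 difference of -2.42. Of the difference between D0 and D16S+, 89.1% was also present in D16S-, the highest share among the 9 genes on the log2(FPKM + 1) scale. Both late libraries were under 1 FPKM, where the added 1 FPKM weighs most, and D16S- was 4.29 times D16S+ in FPKM. The share and its rank thus depend on that scale.

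Twist1, a basic helix-loop-helix (bHLH) factor of cranial and limb mesenchyme, hardly differed between D0 and D3. Its levels were 39.8 FPKM in D0, 39.0 in D3, 19.7 in D6T-, 9.40 in D9T-, 4.72 in D12S+ and 1.93 in D16S+. They were 35.5 FPKM in D6T+, 30.3 in D9T+, 12.2 in D12S- and 14.0 in D16S-. Twist1 was at 2.53 FPKM in iPSCs and 2.98 in mESCs. D3 held 98.1% of the D0 level, and each later library of the successful route up to D16S+ was lower than the one before it.

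Twist2, its close paralog and a factor of dermal mesenchyme, was the most abundant of the 9 in D0. It stood at 435 FPKM in D0, 48.9 in D3, 33.3 in D6T-, 11.4 in D9T-, 15.7 in D12S+ and 2.06 in D16S+. The unsuccessful fractions had 310 FPKM in D6T+, 233 in D9T+, 46.5 in D12S- and 48.4 in D16S-. The iPSCs had 1.27 FPKM and the mESCs 0.269. The highest library was 1615 times the lowest, the widest span of the 9 genes. D3 stood at 11.2% of D0 while D6T+ stood at 71.4%, so the unsorted cells of day 3 were below the Thy-1+ cells of day 6.

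Zeb1, a gene of chromosome 18 for a zinc finger and homeobox repressor of epithelial genes, moved over a narrower span. It was at 13.6 FPKM in D0, 6.00 in D3, 4.53 in D6T-, 4.21 in D9T-, 2.64 in D12S+ and 1.39 in D16S+. It was at 11.7 FPKM in D6T+, 8.76 in D9T+, 5.67 in D12S- and 5.39 in D16S-, with 1.54 in iPSCs and 1.92 in mESCs. The highest level was 9.77 times the lowest, the smallest such ratio among the 9 genes.

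Zeb2, its paralog, was a low gene and was not highest in D0. It was at 4.77 FPKM in D0, 4.35 in D3, 3.10 in D6T-, 3.90 in D9T-, 1.28 in D12S+ and 0.286 in D16S+. The unsuccessful fractions had 7.92 FPKM in D6T+, 7.82 in D9T+, 3.11 in D12S- and 3.73 in D16S-. The end points were at 0.471 FPKM in iPSCs and 0.140 in mESCs. Both Thy-1+ libraries stood above D0, at 166% and 164% of its level, and D16S- stood at 78.2%.

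Prrx1, a homeobox factor that marks limb bud mesenchyme and fibroblasts, was also highest outside D0. Its levels were 44.4 FPKM in D0, 24.7 in D3, 18.1 in D6T-, 12.7 in D9T-, 10.3 in D12S+ and 2.61 in D16S+. They were 52.8 FPKM in D6T+, 56.4 in D9T+, 27.8 in D12S- and 30.6 in D16S-. The iPSCs had 0.197 FPKM and the mESCs 0.0837. D9T+ held 127% of the D0 level and D6T+ 119%, and Prrx1 was the gene of the 9 that was lower at each of the 6 steps from D0 to iPSCs along the successful route.

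Prrx2, its paralog, had another profile. It stood at 19.5 FPKM in D0, 7.99 in D3, 1.47 in D6T-, 2.16 in D9T-, 2.90 in D12S+ and 2.23 in D16S+. The unsuccessful fractions had 6.49 FPKM in D6T+, 9.16 in D9T+, 4.07 in D12S- and 8.71 in D16S-. The iPSCs had 8.05 FPKM and the mESCs 7.96, each close to D3 and D16S-. The lowest library was D6T-, and both pluripotent lines held about the same share of the D0 level, 41.3% and 40.8%.

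Foxc2, the forkhead factor, was low throughout. It was at 7.83 FPKM in D0, 2.09 in D3, 0.638 in D6T-, 0.147 in D9T-, 0.274 in D12S+ and 0.153 in D16S+. It was at 2.82 FPKM in D6T+, 1.62 in D9T+, 0.448 in D12S- and 0.481 in D16S-, with 0.179 in iPSCs and 0.898 in mESCs. As with Snai2, most of its difference between D0 and D16S+ (87.7%, on the log2(FPKM + 1) scale) was also present in D16S-, with both late libraries under 1 FPKM.

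**Figure D2:**
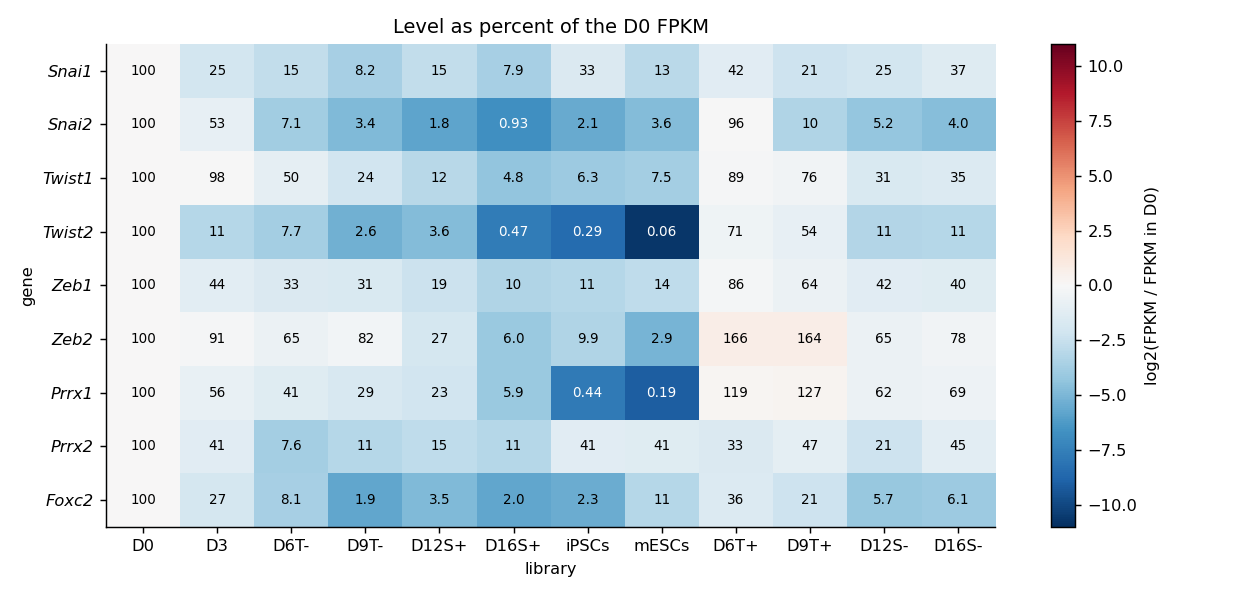
FPKM of each gene in each library as a percent of its FPKM in D0 (numbers), with the colour giving the log2 ratio to D0. Values above 100% occur in the D6T+ and D9T+ columns of Zeb2 and Prrx1, and the palest end point cells are those of Prrx2 and of Snai1 in iPSCs.

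The error behind these levels was wide. Cuffdiff modelled an interval for each FPKM from 1 library, which holds no measured spread between cultures. The half-width of the interval was a median of 118% of the FPKM over the 108 values of the 9 genes, with a range from 93.5% to 188%. Of the 108 intervals, 95 reached down to 0, where the lower end is cut off. In such a case the half-width can understate the distance from the value to its upper end, as for Snai2 in D6T- (0.741 FPKM, upper end 2.36). Of the 66 pairs of libraries, 9 had intervals apart for Twist2 and 0 for each of the other genes. For Twist2 the intervals of D0, D6T+ and D9T+ each lay above those of D16S+, iPSCs and mESCs, with 17.2 to 852 FPKM in D0 and 0 to 6.19 in D16S+. Over all kept genes, intervals of D0 were apart from those of D16S+ in 0.896%, of iPSCs in 0.987% and of mESCs in 1.22%. Such shares were not computed for the pairs with D6T+ and D9T+. For every gene the 11 pairs of neighbours in the order of its levels had overlapping intervals, so no neighbours in that order can be told apart.

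Differences below are on the log2(FPKM + 1) scale, which understates changes of low genes, and a gene is counted when 2 libraries differ at least 2-fold on it. The start of reprogramming was examined by comparing D3 with D0. At D3, 5 of 9 genes were at least 2-fold lower and 0 higher, against 8.67% of all kept genes lower and 5.76% higher. The 5 were Twist2 (-3.13), Snai1 (-1.93), Foxc2 (-1.52), Prrx2 (-1.19) and Zeb1 (-1.06), and the median of the 9 was -1.06 where that of all genes was -0.02. Scaling each library to the same total FPKM put the median of all genes at 0.12. The count was then 3 of 9, with no share of all kept genes computed at that scaling. The small differences of Twist1 (-0.03) and Zeb2 (-0.11) turned to 0.23 and 0.11. The share of the D0 to D16S+ difference already present at D3 ran from 0.711% for Twist1 and 5.08% for Zeb2 to 56.6% for Snai1. The 8 fibroblast markers were all at least 2-fold lower in D3, and their summed level was 1940 FPKM against 7233 in D0; their part in the differences of the 9 genes was not tested.

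The cells of day 6 were next set against D3. D6T- was lower than D3 in all 9 genes, with a median of -0.65 where that of all kept genes was 0.02. At least 2-fold lower were 2 of the 9, against 6.62% of all kept genes. These were Snai2 (-1.92) and Prrx2 (-1.86). D6T+ was higher than D3 in 7 of 9 genes, with a median of 0.74 where that of all kept genes was 0.001. The share of all kept genes that differed by any amount was not computed for either comparison. In D6T+, 2 of the 9 were at least 2-fold higher than in D3, against 5.16% of all kept genes. Twist2 was higher by 2.64 and Prrx1 by 1.06. Against D0, D6T+ had 3 of 9 genes at least 2-fold lower (4.39% of all kept genes), namely Prrx2 (-1.45), Snai1 (-1.23) and Foxc2 (-1.21), with a median of -0.20. The labels do not say that D3 and day 6 cells came from 1 culture, and D3 was not sorted.

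To compare the routes, the 2 sorted fractions of each day were set side by side. In D6T- 8 of 9 genes were at least 2-fold lower than in D6T+, against 9.47% of all kept genes, with a median of -1.34. Twist2 (-3.18) and Snai2 (-2.67) differed most, and Twist1 (-0.82) was the gene below the threshold. In D9T- 6 of 9 were at least 2-fold lower than in D9T+ (6.45% of all kept genes), with a median of -1.19, led by Twist2 (-4.24) and Prrx1 (-2.06). In D12S+ 3 of 9 were at least 2-fold lower than in D12S- (3.03% of all kept genes), namely Twist2 (-1.51), Prrx1 (-1.35) and Twist1 (-1.21). In D16S+ 7 of 9 were at least 2-fold lower than in D16S- (15.2% of all kept genes), with a median of -1.88, led by Twist2 (-4.01), Prrx1 (-3.13) and Twist1 (-2.36). None of the 9 was at least 2-fold higher in the successful fraction on any of the 4 days, where 2.93% of all kept genes were so on day 6, 1.81% on day 9, 4.79% on day 12 and 11.8% on day 16.

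Twist2 and Prrx1 were at least 2-fold lower in the successful fraction on all 4 days, as were 1.07% of all kept genes. Snai1, Twist1 and Prrx2 were so on 3 days (2.91% of all kept genes), Zeb1, Zeb2 and Foxc2 on 2 days (5.01%) and Snai2 on 1 day (11.2%). Snai2 and Foxc2 were under 2 FPKM in both fractions from day 9 on, where the added 1 FPKM weighs most. With 0.1 FPKM added in its place, Snai2 was lower by more than 2-fold on the other 3 days too. Its differences were -1.34 for D9T-, -1.17 for D12S+ and -1.39 for D16S+ against the other fraction of the same day. The order of the genes by number of days thus depends on the added 1 FPKM. In plain FPKM, Zeb1 and Zeb2 were, like Snai2, Twist2 and Prrx1, more than 2-fold lower on all 4 days, and Foxc2 on 3 days. On day 9 this was by a small margin, with D9T- at 0.480 of D9T+ for Zeb1 and 0.499 for Zeb2. No share of all kept genes was computed in plain FPKM. The sort itself separated fibroblast genes, as the 8 fibroblast markers summed to 401 FPKM in D6T- and 2675 in D6T+, 358 in D9T- and 2193 in D9T+, 246 in D12S+ and 669 in D12S-, and 32.8 in D16S+ and 419 in D16S-. Their part in the differences of the 9 genes was not tested. Thy1, the gene of the sorting marker of days 6 and 9, is 1 of these 8 markers, so part of their gap on those days was set by the sort. It was at 3.24 FPKM in D6T- and 477 in D6T+, and at 3.72 in D9T- and 491 in D9T+. Of the 8 markers, 7 were at least 2-fold lower in D6T- than in D6T+ (9.47% of all kept genes).

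**Figure D3:**
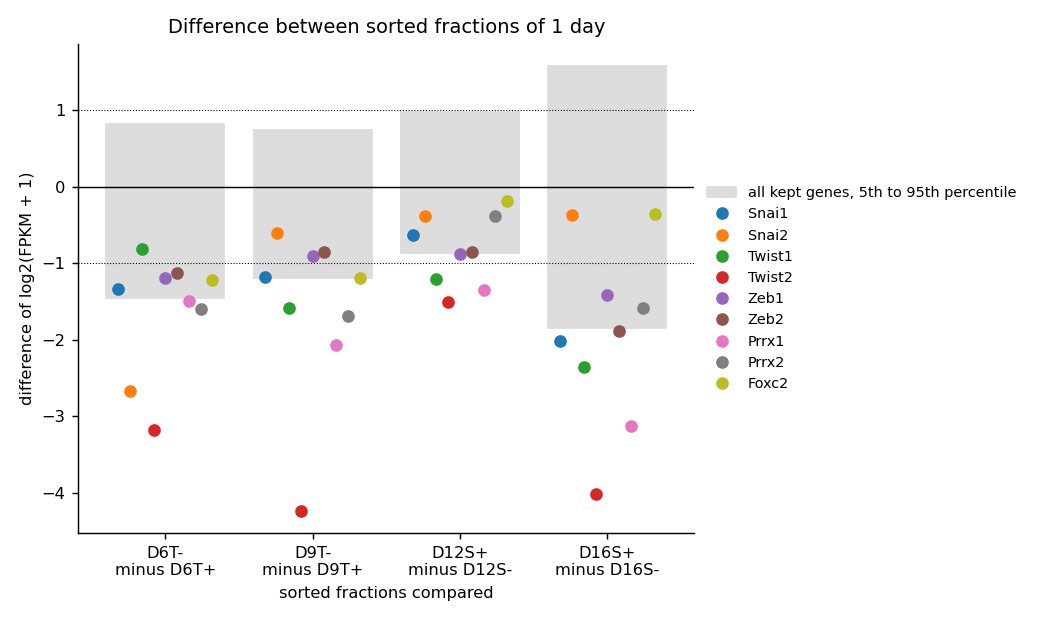
Difference of log2(FPKM + 1) between the successful and the unsuccessful fraction of days 6, 9, 12 and 16 for each of the 9 genes (points), with the 5th to 95th percentile of all 14178 kept genes (grey). All points lie below 0, Twist2 is lowest on each day, and dotted lines mark 2-fold.

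The late libraries were compared with D0. In D16S+ 9 of 9 genes were at least 2-fold lower than in D0, against 20.9% of all kept genes, with a median of -3.39 and a range from -7.15 for Twist2 to -2.17 for Zeb2. In D16S- 7 of 9 were at least 2-fold lower, against 11.4%, with a median of -1.39, and Prrx1 (-0.52) and Zeb2 (-0.29) were the others. D16S+ and D16S- were both set against the same D0 library. Scaling to the same total FPKM moved the median of all genes from 0.05 to 0.35 in D16S+ and from 0.00 to 0.19 in D16S-. The counts were then 9 of 9 in D16S+ and 5 of 9 in D16S-, and Zeb2 in D16S- differed from D0 by -0.04. No share of all kept genes was computed at that scaling.

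The genes thus differed in how much of their fall the unsuccessful route shared. For Zeb2 and Prrx1, 13.2% and 14.4% of the D0 to D16S+ difference was present in D16S-. The share was 37.96% for Twist1, 40.4% for Prrx2, 40.9% for Snai1, 43.9% for Twist2 and 45.7% for Zeb1. On the unsuccessful route 4 of 9 genes were at least 2-fold lower in D12S- than in D9T+ (3.31% of all kept genes), namely Twist2 (-2.30), Twist1 (-1.24), Zeb2 (-1.10) and Prrx2 (-1.002). From D12S- to D16S- no gene passed 2-fold in either direction (0.536% of all kept genes lower and 2.03% higher). The marker used for sorting changed between day 9 and day 12, which cannot be told apart from the day.

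The later steps of the successful route were then examined. From D6T- to D9T- 1 of 9 genes was at least 2-fold lower (1.14% of all kept genes), namely Twist2 (-1.47). From D9T- to D12S+ it was Zeb2 (-1.10; 3.30% of all kept genes). From D12S+ to D16S+ 2 of 9 were at least 2-fold lower, against 5.32%, namely Twist2 (-2.45) and Prrx1 (-1.64). All 9 were lower by some amount, with a median of -0.83 where that of all kept genes was -0.03. The share of all kept genes lower by any amount was not computed.

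The pluripotent lines were compared next. In iPSCs 9 of 9 genes were at least 2-fold lower than in D0, against 21.6% of all kept genes, with a median of -2.90. From D16S+ to iPSCs, 2 of 9 genes were at least 2-fold higher (4.38% of all kept genes), Snai1 by 1.87 and Prrx2 by 1.49, and 1 was at least 2-fold lower (7.77%), Prrx1 at -1.59. Between iPSCs and mESCs, 1 of 9 genes was at least 2-fold higher in iPSCs (6.79% of all kept genes), Snai1 by 1.28, and 0 lower (7.41%), with a median of 0.01. Snai1 was thus at 19.2 FPKM in iPSCs, 4.52 in D16S+ and 7.33 in mESCs, and its intervals in the 3 libraries overlapped.

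Since 8 of the 9 genes form paralog pairs, the ratio of the FPKM of each pair was taken within each library. Twist2 was 10.9 times Twist1 in D0, 1.25 times in D3, 8.74 times in D6T+ and 1.69 times in D6T-. The ratio was 1.07 in D16S+, 0.502 in iPSCs and 0.0903 in mESCs, so Twist1 was the higher of the pair in both pluripotent lines. Prrx1 was 2.28 times Prrx2 in D0, 12.3 times in D6T- and 1.17 times in D16S+. In the pluripotent lines the order of that pair was turned, and Prrx2 was 40.8 times Prrx1 in iPSCs and 95.1 times in mESCs. Snai1 was above Snai2 in all 12 libraries, from 2.37 times in D6T+ to 85.1 times in iPSCs. Zeb1 was above Zeb2 in all 12 as well, from 1.08 times in D9T- to 13.7 times in mESCs. A ratio within a library does not depend on library scaling, but ratios with a gene under 1 FPKM rest on low values.

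**Figure D4:**
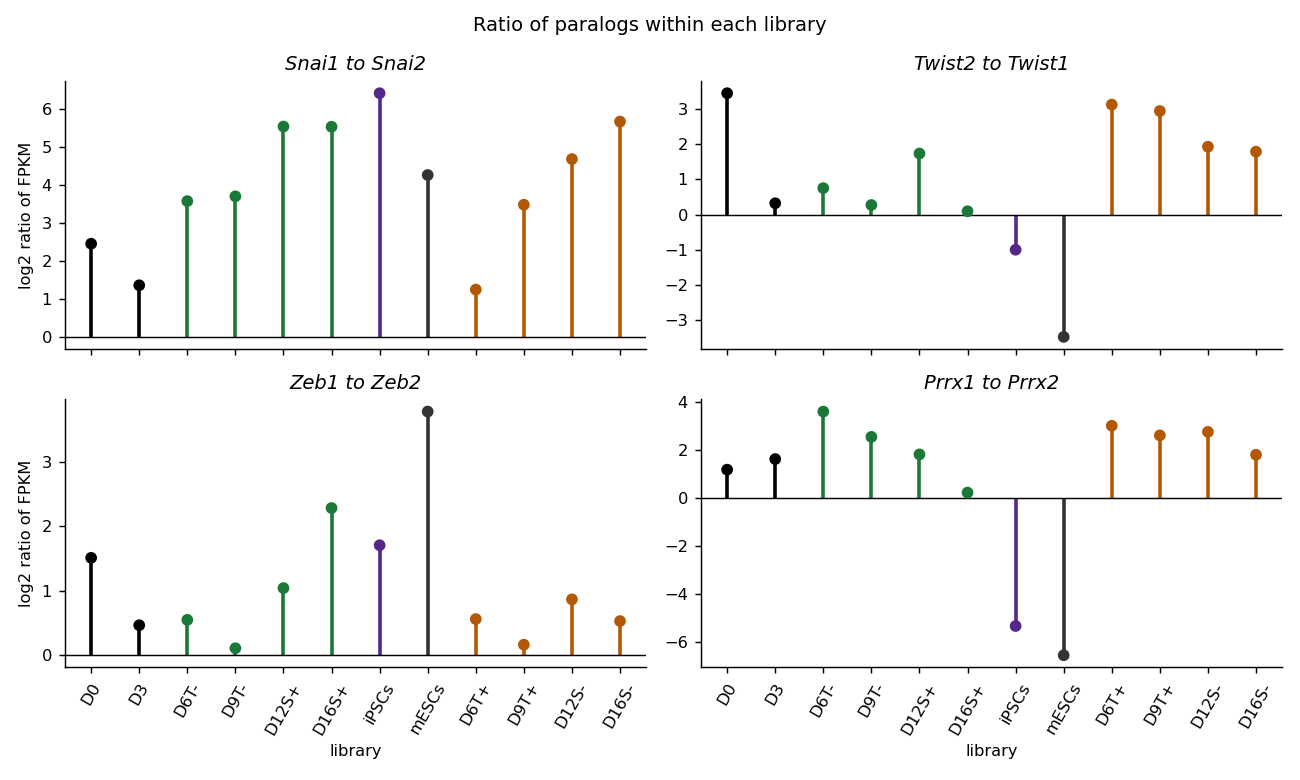
Log2 ratio of the FPKM of 4 paralog pairs within each of the 12 libraries, with 0 meaning equal FPKM. Twist2 to Twist1 and Prrx1 to Prrx2 lie below 0 in iPSCs and mESCs and above it in the other 10 libraries, whereas the other 2 pairs stay above 0.

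Across the 12 libraries the genes varied together to different degrees. Pearson correlations of log2(FPKM + 1) over the 36 pairs ran from 0.17 for Prrx1 with Prrx2 to 0.97 for Twist2 with Zeb1, with a median of 0.73. Twist1, Twist2, Zeb1, Zeb2 and Prrx1 had correlations between 0.89 and 0.97 in the pairs among them, Snai2 and Foxc2 at 0.92, and Snai1 and Prrx2 at 0.80. The 12 points are conditions of 1 time course and not independent, so these values are a description. The genes with the most like profile, among 8803 genes that reached 10 FPKM in some library, were Mrc2 (0.99), a collagen receptor, Serpinf1 and Emilin1 for Twist2, and Thbs2 (0.99), a matrix glycoprotein, Ccdc109b and Elmo2 for Prrx1. They were Epb4.1l3 (0.99), Disp1 and Kif1c for Twist1, Il1rap (0.99), Angptl4 and Olfml2b for Zeb1, and Dscr3 (0.98), Ccbe1 and Rftn2 for Snai2. They were Caskin2 (0.95), Cdc42ep1 and Adam8 for Snai1 and Pqlc2 (0.94), Vps37b and Sun2 for Prrx2. Zeb2 and Foxc2 stayed under 10 FPKM and were not searched.

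The genes that these factors are known to act on were then described beside them. Of 18 epithelial genes that are repressed in EMT, 18 were at least 2-fold higher in D16S+ than in D0 (20.0% of all kept genes), with a median difference of 4.85, and 18 were so in D16S- (12.8%), with a median of 3.92. Cdh1, which encodes E-cadherin, stood at 0.15 FPKM in D0, 6.05 in D6T-, 25.8 in D9T-, 130 in D16S+ and 44.6 in D16S-. Epcam stood at 0.528 FPKM in D0, 13.4 in D6T-, 2.84 in D6T+, 150 in D16S+ and 74.6 in D16S-. D16S- therefore held the epithelial transcripts together with 21.3 FPKM of Snai1, 48.4 of Twist2 and 30.6 of Prrx1 in 1 bulk library, where cells with both cannot be told apart from a mix of cells. At D3, 7 of the 18 were at least 2-fold higher (5.76% of all kept genes) and 1, Krt18, lower, with a median of 0.46.

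Of 12 mesenchymal effector genes, 12 were at least 2-fold lower in D16S+ than in D0 (20.9% of all kept genes), with a median of -5.13 and a range from Tnc (-8.94) to Fn1 (-2.51). In D16S- 11 of 12 were lower (11.4% of all kept genes), with a median of -2.46. Vim, the intermediate filament of mesenchymal cells, was the exception, at 3641 FPKM in D0, 2267 in D16S- and 188 in D16S+. In D3, 4 were at least 2-fold lower (8.67% of all kept genes) and 1 higher (5.76%), Cdh2, the N-cadherin gene, at 44.7 FPKM against 16.5 in D0. Between the fractions of day 6, 11 of 12 effector genes were at least 2-fold lower in D6T- than in D6T+. Of the 18 epithelial genes, 6 were higher in D6T- and 1, Krt18 (-1.78), lower. The shares of all kept genes were 9.47% lower and 2.93% higher.

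Epithelial transcription factors, some of which are known antagonists of ZEB factors, went the other way. All 8 listed (Grhl1, Grhl2, Grhl3, Ovol1, Ovol2, Elf3, Klf5 and Tfap2c) were at least 2-fold higher in D16S+ than in D0 (20.0% of all kept genes), with a median of 3.25 and a range from Ovol1 (1.78) to Elf3 (6.03). In D16S- 7 of 8 were higher (12.8% of all kept genes), and Klf5 (0.16) was the other. Ovol2, a repressor of Zeb1 in other systems, was at 0.0434 FPKM in D0, 3.45 in D16S+ and 1.65 in D16S-.

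**Figure D5:**
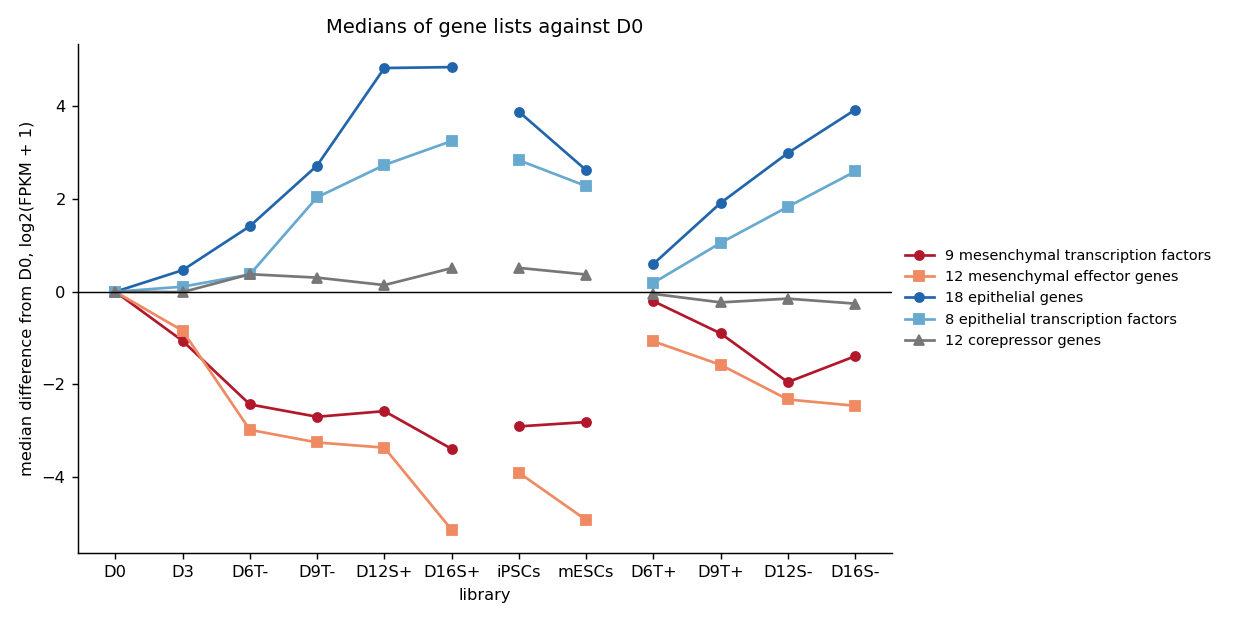
Median difference from D0, on the log2(FPKM + 1) scale, of the 9 mesenchymal transcription factors and of 4 gene lists in the 12 libraries. In D16S+ the medians were -3.39 for the 9 factors, -5.13 for mesenchymal effector genes, 4.85 for epithelial genes, 3.25 for epithelial transcription factors and 0.51 for corepressors.

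Lists of partners and regulators of the 9 factors had smaller median differences than the 9 factors. A smaller median does not mean that fewer genes differed, since genes of a list could differ in opposite directions. Of 12 corepressor genes of SNAIL and ZEB factors, 5 were at least 2-fold higher and 3 lower in D16S+ than in D0, with a median of 0.51. The CtBP pair split, with Ctbp2 higher by 1.84 and Ctbp1 at -1.81. Of 7 genes for bHLH partners and Id inhibitors of TWIST proteins, 0 were higher and 4 lower, with a median of -1.35. This list pools partners with inhibitors, so its median gives no single direction of action. Of the partners, Tcf4 differed by -1.87, Tcf12 by -1.47 and Tcf3 by -0.26. Of the dimerisation inhibitors, Id3 had the lowest value (-2.90), with Id1 at -1.35, Id2 at -0.05 and Id4 at 0.02. Of 12 genes of the TGF-beta input, a known inducer of EMT, 1 was higher and 5 lower (Tgfb3 at -3.97, Skil at 2.21). Of 8 genes that regulate the stability of SNAIL and ZEB proteins, 4 were higher and 1, Lats2 (-1.89), lower. The shares of all kept genes in this comparison were 20.0% higher and 20.9% lower.

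Other factors of the same families did not all follow the 9. Of 9 close paralogs that passed 1 FPKM (13 were listed and 12 were in the table), 3 were at least 2-fold higher and 6 lower in D16S+ than in D0. For this and the next list, the shares of all kept genes were 20.0% higher and 20.9% lower. Those higher were Snai3, at 0.160 FPKM in D0 and 11.2 in D16S+, Hand1, at 0.0788 and 10.7 FPKM, and Tcf15, at 0.0592 and 23.2 FPKM. Shox2, a homeobox factor of limb, was lowest (-3.53). Of 15 other mesenchymal factors that passed 1 FPKM (17 listed, 16 in the table), 10 were lower and 2 higher in the same comparison. The extremes were Osr1 at -4.30 and Foxd1 at 1.66. Foxd1 was at 0.258 FPKM in D0, 80.2 in D6T- and 12.4 in D6T+.

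Markers of cell types were set beside these results for each library. The 8 fibroblast markers were at least 2-fold lower in D16S+, D16S- and iPSCs than in D0 (20.9%, 11.4% and 21.6% of all kept genes). The 8 pluripotent markers were at least 2-fold higher than in D0 in D16S+ (20.0% of all kept genes) and iPSCs (18.7%), and 7 of the 8 were so in D16S- (12.8%), with a median of 2.75. Of 7 macrophage markers, which summed to between 15.3 FPKM in D6T- and 145 in D16S-, Ptprc, Emr1 and Cx3cr1 stayed at or under 0.425 FPKM. Csf1r was at 19.9 FPKM in D16S- and 6.63 in D16S+, and Cd68 at 115 and 62.0 FPKM. Cd14 was at 9.79 FPKM in D0, 9.03 in D16S- and 1.67 in D16S+. The 6 endothelial markers summed to between 9.51 and 63.6 FPKM, of which Pecam1 made 61.1 in mESCs, and Emcn stayed at or under 0.253 FPKM. Cdh5 was at 11.8 FPKM in D0, 1.53 in D3 and 0.168 in D6T-, whereas Tek was at 0.0624 FPKM in D0, 7.54 in D3 and 16.5 in D9T-. The 6 neural markers summed to 8.01 FPKM in D0 and 130 in D3, of which Stmn2 made 125, and Sox10 stayed at or under 0.983 FPKM. Their part in the levels of the 9 genes was not tested. The total FPKM per library ran from 484968 to 648264, and the depth relative to D0, estimated from the steps of low FPKM values, from 0.967 in D9T+ to 1.56 in D6T-.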

How the data were processed

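The authors prepared TruSeq mRNA libraries, mapped reads to mm9 with STAR, removed reads with more than 2 mismatches or several loci, and estimated expression with cuffdiff. The deposited values are FPKM with the interval that cuffdiff modelled for each. Software versions, annotation, library scaling and total fragments were not given in the sources used here, so absolute depth is unknown and the number of libraries (1 per condition) limits the precision. The kit is named as stranded in the labels and without that word in the methods. The removal of reads with several loci can lower paralogs that share sequence.

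Groups came from the titles in the labels. FPKM values were analysed as log2(FPKM + 1), with genes of at least 1 FPKM in at least 1 library kept, in Python 3.11.15 (numpy 2.4.6, pandas 2.3.3). Differences of at least 2-fold were counted without a test, beside the share of all kept genes past the same fold. The counting functions were tested on simulated data. The alternatives tried were 0.1 FPKM added, other filters, other scalings and a 4-fold threshold. A further 12 columns of status words were used only to check that all 108 values of the 9 genes were marked OK.

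The 9 genes and all lists were chosen with earlier results of these data known, and several list genes are named by the study, so the direction of a list is not independent evidence. Named genes are the 9, the extremes of a list in a comparison, Cdh1, Epcam, Vim, Cdh2, Fn1 and Thy1, and the 3 genes most correlated with each of the 9. All genes of the list of bHLH partners and Id inhibitors are named too. Other list genes named were chosen after their values were seen: Ovol2, Klf5, Ctbp1, Snai3, Hand1, Pecam1, Stmn2, Csf1r, Cd68, Cd14, Cdh5, Tek and the low marker genes.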

Additional observations from a re-analysis of the deposited data

How the results depend on the processing

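No paired analysis was possible because each condition had 1 library. For the 9 genes, 140 of 153 recomputed medians and counts kept their size and 13 moved. Of 405 recomputed differences of single genes, 381 kept theirs and 24 moved, all of them among the 81 with 0.1 FPKM added. None of the called differences changed sign. With 0.1 FPKM added the median was -4.04 in D16S+ and -3.93 in iPSCs against D0, 6 genes were at least 2-fold lower in D12S+ than in D12S-, and 3 were higher and 1 lower in iPSCs than in mESCs. Scaled to the same total FPKM, 3 genes were lower in D3 than in D0. At 4-fold, 1 gene was lower in D3 and 3 in D16S- than in D0, and 0 were higher in iPSCs than in mESCs. The fractions then gave 2 lower genes on day 6, 2 on day 9, 0 on day 12 and 4 on day 16. Shares of all kept genes were not computed under these alternatives, so their counts cannot be set against such a share. A different filter could not alter the 9 genes, since all passed 5 FPKM in some library. Each filter tried supplied 27 of the medians and counts and 81 of the single differences, which were bound to keep their size. The intervals hold no biological spread, so differences of low genes such as Snai2, Foxc2 and Zeb2 have no measured error.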
